A study of Mus musculus with 7 samples.

Results

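Accessible chromatin was examined at the genes of the aryl hydrocarbon receptor pathway in mouse liver. The genes were Ahr, Arnt, Ahrr, Tiparp, Cyp1a1, Cyp1a2 and Cyp1b1, and a hotspot was counted when it overlapped one of these 7 gene bodies or the 20 kb on either side. Hotspots are stretches of the genome where nuclease cleavage tags cluster above background. The windows held 98 of 190871 hotspots, which were 29 of 60910 for Benzonase, 28 of 57675 for Cyanase and 41 of 72286 for DNase I. Joining hotspots of the 3 lists that overlapped by at least 1 bp gave 46 of 94491 regions.

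Ahr is a ligand-activated transcription factor that waits in the cytoplasm with chaperones and, once it binds dioxin, polycyclic aromatic hydrocarbons or some dietary indoles, moves to the nucleus and pairs with Arnt. The pair binds the xenobiotic response element, a short DNA motif with the consensus TNGCGTG, and turns on the Cyp1 genes, whose cytochrome P450 enzymes oxidize many of the same ligands. Ahrr, a repressor that competes for Arnt, and Tiparp, a mono-ADP-ribosyltransferase, are induced by the receptor and dampen it.

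Livers came from male C57BL/6 mice at 8 weeks of age, and no receptor ligand is named among the labels. Benzonase and Cyanase digested pulverized frozen liver at 0.25, 1 and 4 U, with 1 sample at each of these amounts for each enzyme, in the Tissue Accessible Chromatin (TACh) procedure. DNase I, with 1 labelled sample, digested nuclei purified from fresh liver, so that enzyme and tissue preparation cannot be told apart. The authors pooled the tags of each nuclease into 1 hotspot list, so that no spread between replicates exists, no test between nucleases was possible, and every count is a description of these 3 lists. Tag numbers are not among the columns of the lists, so the depth behind a hotspot is unknown. All 8 hepatocyte marker genes, among them Alb and Apoa1, had a transcription start site (TSS) inside hotspots of all 3 nucleases. The share of all protein-coding genes was 46.1%. A site that is open in few cells and a site that is weakly open in all cells cannot be told apart in whole liver.

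The motif matches that the lists shared most densely lay upstream of Cyp1a1 (ENSMUSG00000032315.5, plus strand, chr9:57545420-57551629 of mm9). Its upstream region, chr9:57544034-57544839, is intergenic and held 6 matches to TNGCGTG, counted on both strands. They are given 5′ to 3′ in the direction of the motif, with capitals for the 7 bases of the match, because the neighbouring bases differ from match to match.
Site 1384 to 1378 bp upstream, minus strand: gaactTGGCGTGtctaa
Site 1208 to 1202 bp upstream, minus strand: cgggtTTGCGTGcgatg
Site 1063 to 1057 bp upstream, plus strand: ccagcTAGCGTGacagc
Site 986 to 980 bp upstream, minus strand: cggagTTGCGTGagaag
Site 897 to 891 bp upstream, minus strand: gaggcTAGCGTGcgtaa
Site 826 to 820 bp upstream, plus strand: ctgtcTCGCGTGgatcc

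Each line holds 17 bases. The first of these matches lay inside the Benzonase hotspot only, and the other 5 lay inside the hotspots of all 3 nucleases. A further match, 493 to 487 bp upstream of the TSS, lay in no hotspot. The next sequence is the stretch of 300 bases with most matches that was covered by all 3 lists, chr9:57544330-57544629, on the plus strand. Capitals mark the 4 matches, and a match on the opposite strand reads CACGCNA.
Cyp1a1 upstream region: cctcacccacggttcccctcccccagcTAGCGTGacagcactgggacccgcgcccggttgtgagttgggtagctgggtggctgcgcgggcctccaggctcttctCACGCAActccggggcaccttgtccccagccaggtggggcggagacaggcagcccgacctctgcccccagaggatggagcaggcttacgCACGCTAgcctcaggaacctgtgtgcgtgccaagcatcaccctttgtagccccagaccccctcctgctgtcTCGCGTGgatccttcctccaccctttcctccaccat

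The stretch ended 791 bp before the TSS and had a GC content of 66.3%. The 250 bases next to the TSS (chr9:57545170-57545419, plus strand) were in no hotspot, and are shown for contrast with the TATAAA motif in capitals. TATAAA occurred in 12.3% of the 22360 promoters of this length and TNGCGTG in 4.87%.
Cyp1a1 promoter: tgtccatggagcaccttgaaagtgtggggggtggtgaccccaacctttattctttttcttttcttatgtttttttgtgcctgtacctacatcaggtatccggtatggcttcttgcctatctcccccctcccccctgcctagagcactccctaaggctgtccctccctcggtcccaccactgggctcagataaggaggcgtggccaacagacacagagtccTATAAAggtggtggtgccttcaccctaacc

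Cyp1a2 (ENSMUSG00000032310.3, minus strand, chr9:57524744-57531462) is transcribed away from Cyp1a1, and its promoter of the same length (chr9:57531463-57531712, minus strand) lay wholly inside hotspots of all 3 nucleases. It also held TATAAA, in capitals, and no TNGCGTG. The match nearest to Cyp1a2 lay 4209 to 4203 bp upstream of its TSS, inside hotspots of all 3 nucleases, and is shown in capitals in an intergenic stretch of 81 bases (chr9:57535628-57535708, minus strand).
Cyp1a2 promoter: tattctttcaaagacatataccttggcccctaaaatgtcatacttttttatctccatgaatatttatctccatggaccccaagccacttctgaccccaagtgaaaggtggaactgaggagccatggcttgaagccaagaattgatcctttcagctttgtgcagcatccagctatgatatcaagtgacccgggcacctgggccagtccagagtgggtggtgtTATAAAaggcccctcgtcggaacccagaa
Cyp1a2 upstream region: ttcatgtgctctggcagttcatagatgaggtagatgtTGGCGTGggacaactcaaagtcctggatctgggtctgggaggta

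The regulators and Cyp1b1 (ENSMUSG00000024087.2, minus strand, chr17:80106234-80114401) are represented by 3 further sequences, written 5′ to 3′ on the strand of their gene with TNGCGTG or its reverse complement in capitals. The first is intergenic, upstream of Cyp1b1 (chr17:80115082-80115381), and lay in hotspots of all 3 nucleases. The second lies in intron 3 of Ahrr (chr13:74397336-74397635) and was covered by Benzonase and Cyanase but not by DNase I. The third is the Ahrr promoter (chr13:74429780-74430029), which was in no hotspot although it held a match.
Cyp1b1 upstream region: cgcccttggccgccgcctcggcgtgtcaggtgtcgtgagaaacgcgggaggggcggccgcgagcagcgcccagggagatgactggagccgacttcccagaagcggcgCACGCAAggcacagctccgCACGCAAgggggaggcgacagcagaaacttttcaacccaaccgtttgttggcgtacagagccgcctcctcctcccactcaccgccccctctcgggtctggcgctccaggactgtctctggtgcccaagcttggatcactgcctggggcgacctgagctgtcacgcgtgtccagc
Ahrr intron 3 region: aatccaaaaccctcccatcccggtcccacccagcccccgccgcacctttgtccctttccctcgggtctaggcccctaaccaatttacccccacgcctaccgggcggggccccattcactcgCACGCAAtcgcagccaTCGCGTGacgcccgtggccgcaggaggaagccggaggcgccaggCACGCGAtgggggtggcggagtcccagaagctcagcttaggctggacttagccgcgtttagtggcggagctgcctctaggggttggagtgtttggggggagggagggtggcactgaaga
Ahrr promoter: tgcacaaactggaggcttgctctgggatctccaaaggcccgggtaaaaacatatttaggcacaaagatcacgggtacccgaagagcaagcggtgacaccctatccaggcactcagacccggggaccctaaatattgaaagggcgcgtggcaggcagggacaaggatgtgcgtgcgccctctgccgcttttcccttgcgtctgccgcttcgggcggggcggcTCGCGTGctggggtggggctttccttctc

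The shared upstream region of Cyp1a2 and Cyp1a1, a pair of genes that arose by duplication and point away from each other, was called at the same 4 places by the 3 nucleases. The intergenic stretch of 13957 bp (chr9:57531463-57545419) was touched by 4 Benzonase, 4 Cyanase and 4 DNase I hotspots, and these joined into 4 regions, each with hotspots of all 3 nucleases. Over all 94491 regions, 40.0% had hotspots of all 3. Benzonase covered 20.3% of the stretch, Cyanase 17.1% and DNase I 24.2%. All 3 together covered 15.5%, which was 59.0% of the bases covered by any of them. This share was 40.7% over all the gene windows together and 39.1% over the genome. Both of these wider shares also count regions without hotspots of all 3 nucleases, which the stretch lacked, so they are not like for like.

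**Figure D1:**
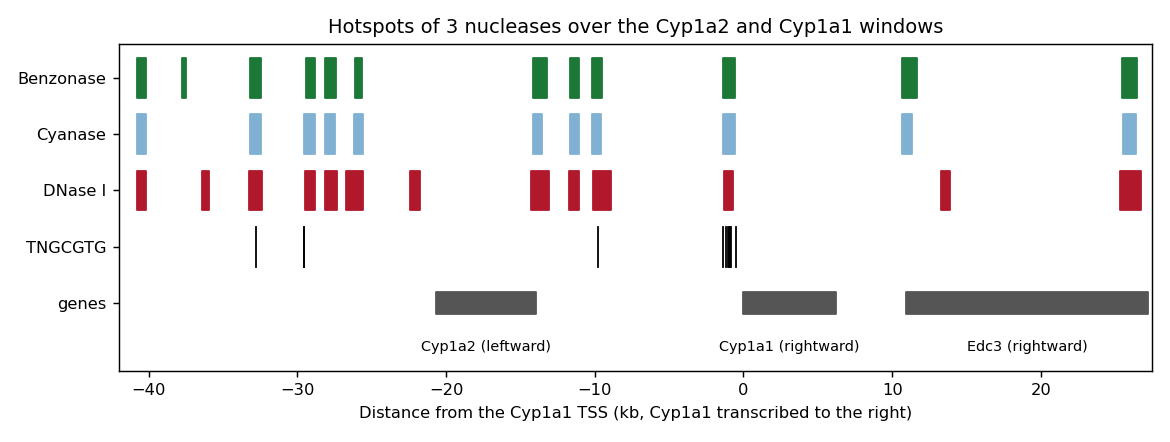
Map of the Cyp1a2 and Cyp1a1 windows, with distance from the Cyp1a1 TSS in kb on the horizontal axis. Coloured boxes are hotspots of each nuclease, black ticks are TNGCGTG matches and grey boxes are genes, with Edc3 running past the right edge. The 4 hotspots between the genes line up in the 3 rows, and none lies over Cyp1a1.

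Cyp1a1, the inducible P450 that hydroxylates polycyclic aromatic hydrocarbons, had an accessible upstream region and a TSS outside every hotspot. The Benzonase hotspot there was 806 bp wide and ran from 1386 to 581 bp upstream of the TSS. The Cyanase hotspot was 784 bp wide, from 1373 to 590 bp upstream. The DNase I hotspot was 636 bp wide, from 1344 to 709 bp upstream. The edges of the Benzonase and Cyanase hotspots lay 13 and 9 bp apart on the left and right sides, and those of Benzonase and DNase I lay 42 and 128 bp apart. The region was rich in GC, at 60.9%, but was not a CpG island.

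Hotspots were absent from the whole body of Cyp1a1. The gap without a hotspot of any nuclease ran for 11247 bp (chr9:57544840-57556086) and held the promoter, all exons and the 3′ flank up to the neighbouring gene Edc3, which encodes an enhancer of mRNA decapping. No hotspot over the gene body was found for 29.6% of the 22365 protein-coding genes. A TSS outside all hotspots combined with a region of all 3 nucleases in the 2 kb upstream was found for 242 genes, or 1.08%, a pattern that was looked up after Cyp1a1 had shown it. Among all 94491 regions, 6 held at least 6 matches to TNGCGTG (0.0063%), and the Cyp1a1 upstream region was one of them. This cut-off was the count of the Cyp1a1 upstream region itself, so that its place in the group was fixed in advance. At least 5 matches were held by 14 regions (0.015%).

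Cyp1a2, the P450 that oxidizes caffeine and is expressed constitutively in hepatocytes, had its TSS inside hotspots of all 3 nucleases. The Benzonase hotspot (chr9:57531264-57532214) was 951 bp wide, the Cyanase hotspot (chr9:57531242-57531847) 606 bp and the DNase I hotspot (chr9:57531134-57532308) 1175 bp. They reached from the upstream flank across exon 1, which is untranslated, into intron 1, and the DNase I hotspot contained both others. The promoter had a GC content of 47.2% and no CpG island.

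Further upstream of Cyp1a2 lay the other two intergenic regions. The nearer one, chr9:57533678-57534352, had hotspots of 602 bp for Benzonase, 602 bp for Cyanase and 675 bp for DNase I. The farther one, chr9:57535203-57536530, held the match to TNGCGTG shown above. Here the Benzonase hotspot was 672 bp wide, the Cyanase hotspot 619 bp and the DNase I hotspot 1219 bp, and the extra DNase I bases lay on the side towards Cyp1a1. From there to the Cyp1a1 upstream region, 7503 bp held no hotspot.

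On the 3′ side of Cyp1a2 a second group of hotspots followed a gap of 7439 bp. It held 8 regions, of which 5 had hotspots of all 3 nucleases, 2 had DNase I alone and 1 had Benzonase alone. One of the 5, chr9:57512149-57513030, held a match to TNGCGTG. Past the 3′ end of Cyp1a1, the region over the TSS of Edc3 (chr9:57556087-57556786), a CpG island with a GC content of 58.3%, was called by Benzonase and Cyanase and not by DNase I.

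Cyp1b1, a P450 that oxidizes estradiol and polycyclic aromatic hydrocarbons and is expressed mainly outside hepatocytes, had the fewest hotspots over the 3 lists. The window of 48.2 kb held 2 Benzonase hotspots, 2 Cyanase hotspots and 1 DNase I hotspot. All 3 nucleases called the region upstream of the TSS. The Benzonase hotspot there spanned 1182 to 366 bp upstream and the DNase I hotspot 980 to 401 bp upstream. Cyanase had a pair of hotspots separated by 29 bp, one from 1178 to 453 bp upstream and one of 456 bp that ran from 423 bp upstream to 32 bp inside exon 1.

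The Cyp1b1 TSS was therefore inside a Cyanase hotspot alone, which was the case for 0.747% of protein-coding genes. This Cyanase hotspot was narrower than the lower width quartile of its list (489 bp), and without such hotspots the TSS lay in no hotspot. With hotspots within 500 bp of a TSS counted, all 3 nucleases called it. Benzonase had its nearest hotspot 366 bp from the 5′ end and DNase I 401 bp from it. A second Benzonase hotspot of 677 bp (chr17:80112834-80113510) lay in the coding part of exon 2, a CpG island with a GC content of 64.0%, and neither Cyanase nor DNase I had a hotspot there. Of the 12 matches to TNGCGTG in the window, 2 lay in hotspots. They were 19 bp apart from start to start, and both were covered by all 3 nucleases.

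Stellate cells are a known site of Cyp1b1 expression in liver. Of the 5 stellate cell markers, 4 had a TSS inside a Benzonase hotspot, 5 inside a Cyanase hotspot and 0 inside a DNase I hotspot, while 1, 1 and 5 of the 6 Kupffer cell markers did. For the 5 endothelial markers the counts were 2, 2 and 0, for the 4 bile duct markers 2, 1 and 1, and for the 3 lymphocyte markers 0 in each list. Of 5 genes listed as markers of other organs, 1 (Gfap) had a TSS inside a Cyanase hotspot and 0 inside the others. Whether these 5 genes are silent in every cell type of the liver was not checked. The shares of all protein-coding genes were 57.4%, 55.7% and 47.4%. The stellate cell markers Lrat and Reln have a TSS in a CpG island, where the shares were 89.8%, 87.7% and 73.6%. The part of the listed cell types in the Cyp1b1 and Ahrr counts was not tested.

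**Figure D2:**
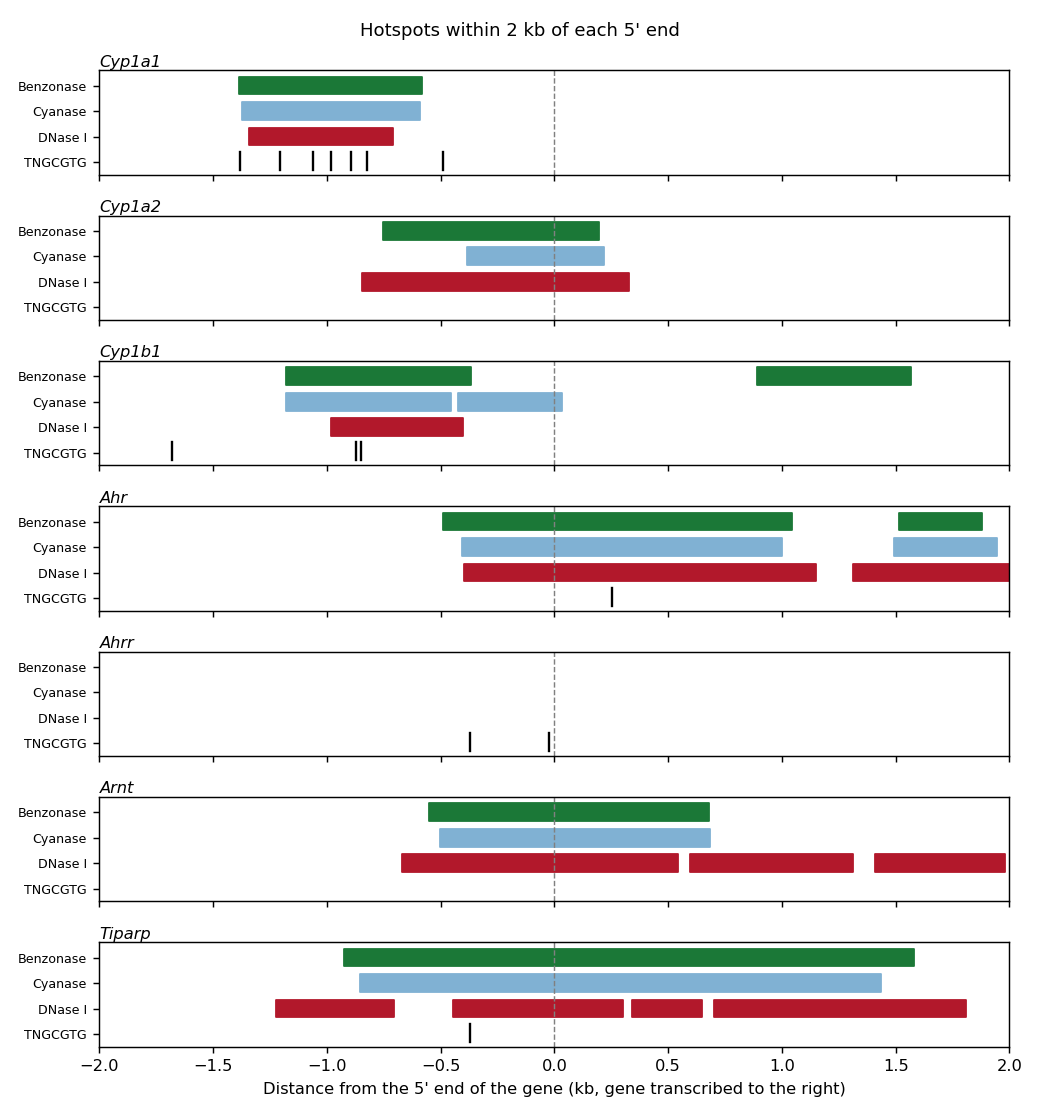
Hotspots of each nuclease within 2 kb of the 5′ end of the 7 genes, with distance in kb on the horizontal axis and each gene transcribed to the right. Coloured boxes are hotspots, black ticks are TNGCGTG matches and the dashed line is the 5′ end. Boxes of all 3 nucleases cross the line at Cyp1a2, Ahr, Arnt and Tiparp, Cyanase alone crosses it at Cyp1b1, and no box crosses it at Cyp1a1 and Ahrr.

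Counted over the 7 genes, a TSS of a protein-coding transcript was inside a hotspot for 4 genes with Benzonase, 5 with Cyanase and 4 with DNase I. The shares of all 22365 protein-coding genes were 57.4%, 55.7% and 47.4%. All 3 nucleases called the TSS of 4 genes (46.1% of all genes) and no nuclease that of 2 genes (40.9% of all genes), so that these counts were near the background. The 4 genes with a TSS in a CpG island were Ahr, Ahrr, Arnt and Tiparp (50.4% of all genes), and Ahrr was the one among them without a hotspot over a protein-coding TSS. With the TSS of any annotated transcript counted, DNase I called 5 genes, Ahrr among them. Across all genes with a TSS in a CpG island, 89.8% had a Benzonase hotspot over a TSS, 87.7% a Cyanase hotspot and 73.6% a DNase I hotspot. Outside islands, where the TSSs of the Cyp1 genes lie, the shares were 24.5%, 23.3% and 20.8%. Cyp1b1 nevertheless had 2 islands within 2 kb of its TSS, and the region at its 5′ end overlapped an island.

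Ahr (ENSMUSG00000019256.10, minus strand, chr12:36182646-36219710), the receptor itself, had all hotspots of its window inside the gene body or across its 5′ end. Its window held 6 Benzonase, 7 Cyanase and 10 DNase I hotspots. The TSS was inside a Benzonase hotspot of 1538 bp, a Cyanase hotspot of 1409 bp and a DNase I hotspot of 1546 bp, which covered exon 1 and also the start of the predicted gene Gm17436. This region had a GC content of 56.5%, overlapped a CpG island and held a TNGCGTG match 248 to 254 bp downstream of the TSS.

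Intron 1 of Ahr held 3 further regions with hotspots of all 3 nucleases. Across the first 5 kb of the gene DNase I had 4 hotspots and Benzonase and Cyanase had 3 each. The DNase I hotspots next to the TSS region followed at distances of 162 and 114 bp, and the second of them, at chr12:36216393-36217445 and 1053 bp wide, had no counterpart in the other lists. Of the 12 regions in the window, 6 were common to DNase I and at least 1 other nuclease, 4 were unique to DNase I and 2 were unique to Cyanase.

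Arnt (ENSMUSG00000015522.11, plus strand, chr3:95238310-95301162), the dimer partner, also had all hotspots of its window inside the gene body or across its 5′ end. DNase I had 7 hotspots, and Benzonase and Cyanase had 3 each. The TSS was inside hotspots of 1233 bp for Benzonase, 1187 bp for Cyanase and 1213 bp for DNase I. Each of the 3 Benzonase hotspots coincided with a Cyanase and a DNase I hotspot, and the 3 regions called by DNase I alone all lay in intron 1, with GC contents of 35.4%, 39.2% and 40.4%. None of the 10 TNGCGTG matches of the Arnt window lay in a hotspot.

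Tiparp (ENSMUSG00000034640.3, plus strand, chr3:65332332-65359067), the ADP-ribosyltransferase induced by the receptor, had the widest Benzonase and Cyanase hotspots of the 7 genes. Benzonase called a single hotspot of 2507 bp over the TSS (chr3:65331406-65333912), and Cyanase a single one of 2291 bp (chr3:65331478-65333768). DNase I called 4 hotspots along the same stretch, of 517, 750, 308 and 1106 bp, with gaps of 258, 38 and 53 bp between them. The median width over each whole list was 652 bp for Benzonase, 641 bp for Cyanase and 649 bp for DNase I. The stretch holds a CpG island of 1753 bp, the start of the neighbouring gene 4931440P22Rik and a TNGCGTG match 374 to 368 bp upstream of the Tiparp TSS.

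Inside intron 2 of Tiparp, DNase I had 3 hotspots, of which 1 overlapped a Cyanase hotspot and none a Benzonase hotspot. Their merged regions had GC contents of 36.9%, 34.3% and 39.4%. The window therefore held 1 Benzonase, 2 Cyanase and 7 DNase I hotspots.

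Ahrr (ENSMUSG00000021575.8, minus strand, chr13:74348566-74429779), the repressor, had its nearest hotspot 9079 bp from its 5′ end although its TSS lies in a CpG island of 280 bp. Of its 10 TNGCGTG matches, 5 lay in hotspots and none in hotspots of all 3 nucleases. Inside intron 3, Benzonase and Cyanase called a CpG island region (chr13:74397133-74397857) with a GC content of 61.1% and 3 of these matches. DNase I called the adjacent stretch (chr13:74397886-74398544), which began 28 bp past that region, had a GC content of 46.4% and held no match. The start of an annotated non-coding Ahrr transcript, at 74398120, lay inside the DNase I hotspot.

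DNase I had a second hotspot of its own in intron 4 of Ahrr (chr13:74382793-74383353) with 2 matches. Upstream, Benzonase had hotspots of 602 and 515 bp and Cyanase one of 260 bp, where DNase I had none. The single region of the Ahrr window with hotspots of all 3 nucleases lay past the 3′ end and covered the TSS of Exoc3, which encodes a subunit of the exocyst.

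**Figure D3:**
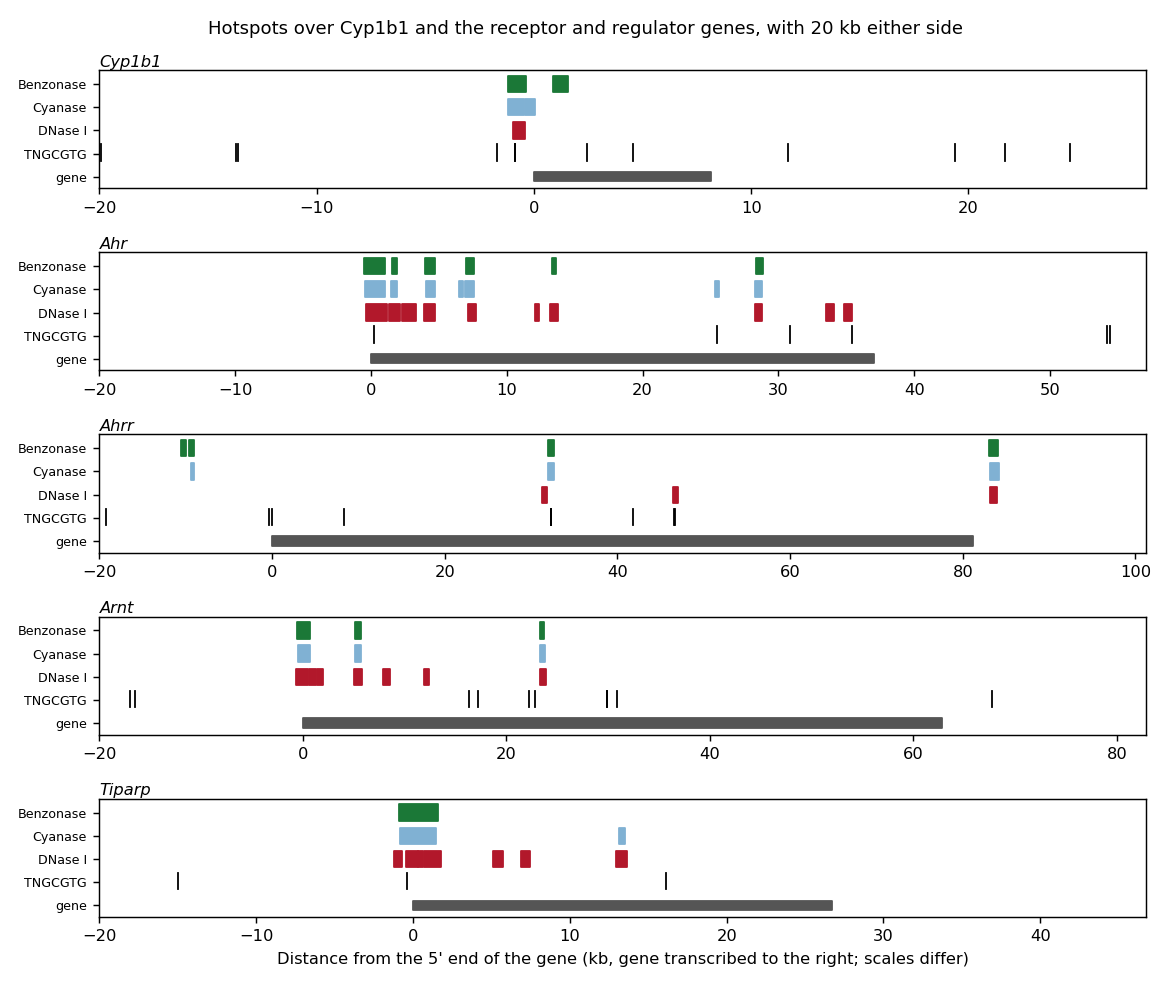
Hotspots over Cyp1b1, Ahr, Ahrr, Arnt and Tiparp with 20 kb on either side, with distance from the 5′ end in kb on the horizontal axes, whose scales differ. Coloured boxes are hotspots of each nuclease, black ticks are TNGCGTG matches and the grey bar is the gene. DNase I boxes without a partner lie inside Ahr, Ahrr, Arnt and Tiparp. At Ahrr the Benzonase and Cyanase boxes upstream have no DNase I box beside them, and those in intron 3 lie next to a DNase I box without overlapping it.

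The numbers of hotspots were similar for the 3 nucleases at the Cyp1a1-Cyp1a2 pair, and DNase I had most over the receptor and regulator genes (Ahr, Arnt, Ahrr and Tiparp) together. Whether these patterns differ could not be tested with 1 list per nuclease. The window of the pair, 66.9 kb, held 13 Benzonase, 11 Cyanase and 13 DNase I hotspots, or 19.4, 16.4 and 19.4 per 100 kb. The windows of Ahr, Arnt, Ahrr and Tiparp, 368 kb in all, held 14, 15 and 27, or 3.81, 4.08 and 7.34 per 100 kb. At Ahrr alone the counts were 4, 3 and 3. DNase I also had several hotspots in regions where Benzonase and Cyanase had 1 each, with 4 at the Tiparp TSS and 2 at the Arnt TSS. The genome as a whole had 2.29, 2.17 and 2.72 per 100 kb, which is not like for like because the windows were drawn around genes. Coverage of the pair was 12.2% for Benzonase, 10.8% for Cyanase and 15.4% for DNase I, against 3.22%, 3.10% and 5.18% at the receptor genes. Over the whole genome it was 1.81%, 1.66% and 1.95%. The median protein-coding gene had 3 hotspots of each nuclease in a window of the same kind.

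**Figure D4:**
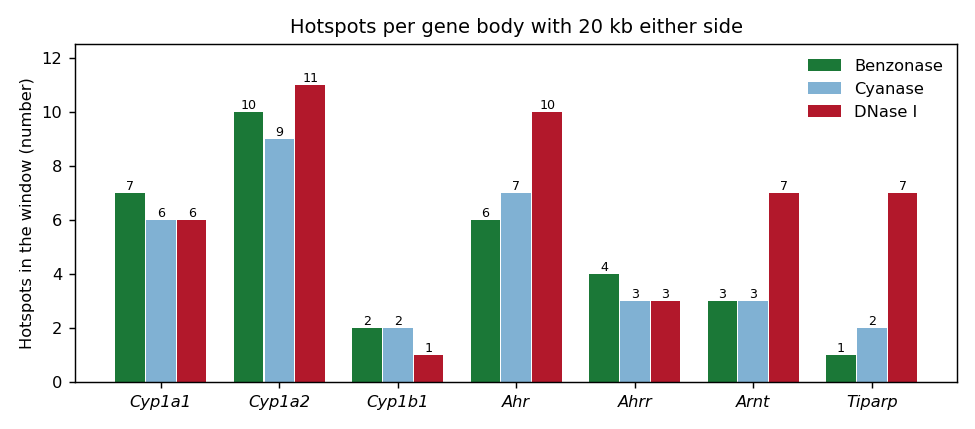
Number of hotspots in the window of each gene (gene body with 20 kb on either side) for Benzonase, Cyanase and DNase I. Bars are counts from 1 pooled list each and have no error. Bars of the 3 nucleases are alike at Cyp1a1 and Cyp1a2, while DNase I stands at 10 for Ahr and at 7 for Arnt and Tiparp. Windows of Cyp1a1 and Cyp1a2 overlap, so hotspots between the genes count for both.

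Regions were divided as common (DNase I with Benzonase or Cyanase), DNase I unique, and Benzonase-Cyanase unique. Of the 46 regions, 23 were common (95% Wilson interval 36.1 to 63.9%), 14 were DNase I unique (30.4%, 19.1 to 44.8) and 9 were Benzonase-Cyanase unique (19.6%, 10.7 to 33.2). Over all regions these shares were 45.4%, 28.3% and 26.3%, and over the regions in the windows of all protein-coding genes 49.7%, 26.2% and 24.1%, which lay inside the intervals. Counted by covered bases, DNase I alone had 35.5% in the windows and 26.5% in the genome. Benzonase and Cyanase without DNase I had 7.84% and 14.6%, and all 3 nucleases 40.7% and 39.1%. Whether the shares of bases differ was not tested. Intervals cover counting error only. At the Cyp1a1-Cyp1a2 pair, 10 of 16 regions were common (62.5%, 38.6 to 81.5), and at the receptor genes 12 of 28 were (42.9%, 26.5 to 60.9). DNase I unique regions were 3 of 16 at the pair (18.8%, 6.59 to 43.0) and 11 of 28 at the receptor genes (39.3%, 23.6 to 57.6). The intervals of the pair and of the receptor genes overlapped in both cases.

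Of the 14 DNase I unique regions, 0 lay over the TSS of a protein-coding transcript (0.924% of all DNase I unique regions) and 12 lay elsewhere inside the body of a protein-coding gene (50.1% of all DNase I unique regions), 11 of them in one of the 7 genes and 1 in Edc3. Among the 9 Benzonase-Cyanase unique regions, 5 lay inside a gene body away from a TSS (42.9% of all regions of the class), 4 of them in one of the 7 genes and 1 in Edc3. A further one lay over the TSS of Edc3, as 2486 of all 24831 regions of the class lay over a TSS. Of the 7 regions over a TSS, 6 were common, where 79.1% of all such regions were. The windows were drawn around genes and the shares over all regions were not, so that the shares inside gene bodies are not like for like. Benzonase hotspots overlapped a Cyanase hotspot in 24 of 29 cases (82.8%) and a DNase I hotspot in 22 of 29 (75.9%), where the whole lists gave 79.6% and 69.3%. Cyanase hotspots overlapped a Benzonase hotspot in 25 of 28 cases (89.3%) and a DNase I hotspot in 23 of 28 (82.1%), where the whole lists gave 85.4% and 71.1%. DNase I hotspots overlapped a Benzonase hotspot in 26 of 41 cases and a Cyanase hotspot in 26 of 41 (63.4% each), where the whole lists gave 60.4% and 58.1%. In the 18 regions with 1 hotspot of each nuclease, edges of Benzonase and Cyanase hotspots were a median of 21.5 bp apart, edges of Benzonase and DNase I 94.0 bp, and edges of Cyanase and DNase I 74.0 bp. Over the 33922 such regions of the genome the medians were 33.0, 71.0 and 70.0 bp.

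The classes had the same order of base composition in the windows as in the genome. The mean GC content was 48.3% ± 6.79 (SD, n = 23 regions) in common regions, 40.3% ± 4.48 (n = 14) in DNase I unique regions and 53.1% ± 6.82 (n = 9) in Benzonase-Cyanase unique regions. Over all regions the means were 49.5%, 42.3% and 54.7%. Regions are not replicates, and the ranges overlapped, with 34.3% to 49.9% in DNase I unique regions and 42.3% to 64.0% in Benzonase-Cyanase unique regions. A CpG island was overlapped by 5 of 23 common, 0 of 14 DNase I unique and 3 of 9 Benzonase-Cyanase unique regions, against 21.7%, 0.146% and 13.6% of all regions of these classes. The upper limit of the 95% Wilson interval for 0 of 14 was 21.5%.

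**Figure D5:**
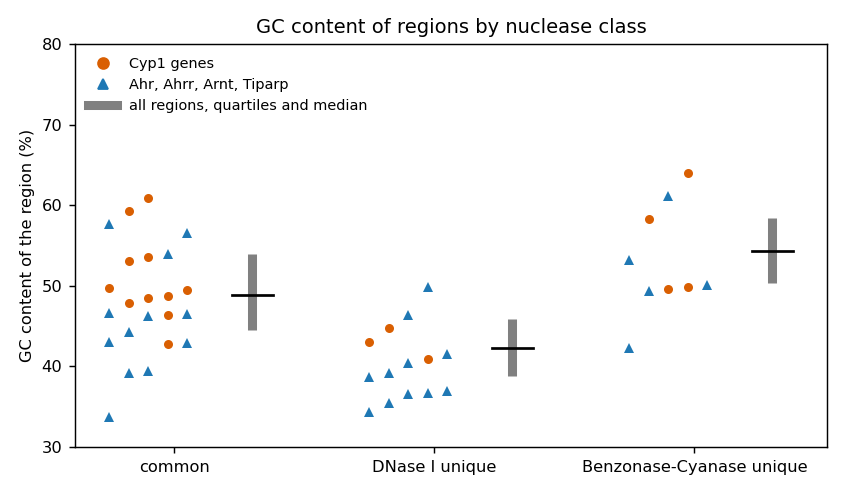
GC content in percent of the 46 regions by class. Circles are regions nearest to a Cyp1 gene, triangles are regions of Ahr, Ahrr, Arnt and Tiparp, and the grey bars with a black line give the quartiles and median over all regions of the class. DNase I unique regions lie between 34.3% and 49.9%, and the highest Benzonase-Cyanase unique point, at 64.0%, is exon 2 of Cyp1b1.

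The xenobiotic response element motif was present in 11 of the 46 regions (23.9%, 95% Wilson interval 13.9 to 37.9), against 9.24% of all regions. In the central 300 bp it was present in 6 of 46 regions (3.78% of all regions), and its core GCGTG was present anywhere in 20 of 46 (36.8% of all regions). Common regions held it in 7 of 23 cases (14.0% of all common regions), DNase I unique regions in 2 of 14 (3.97%) and Benzonase-Cyanase unique regions in 2 of 9 (6.62%). The windows held 52 matches, of which 19 lay in a hotspot, 15 of them in Benzonase, 15 in Cyanase, 14 in DNase I and 11 in all 3. Matches per kb were 0.520 inside regions and 0.0739 in the rest of the windows. In the genome the densities were 0.139 and 0.0673 per kb. The Cyp1a1 upstream region alone held 6 of the 19 matches, and a match is a description of letters and not of binding.

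The list of 16 other genes of the pathway covers chaperones of the receptor such as Hsp90aa1 and Hsp90ab1, coactivators such as Ep300, and target genes such as Nqo1, which encodes a quinone reductase. A TSS lay inside a Benzonase hotspot for 10, inside a Cyanase hotspot for 10 and inside a DNase I hotspot for 9 of them. The shares of all protein-coding genes were 57.4%, 55.7% and 47.4%, and 40.9% had none, so that these counts were near the background. Ncoa1, a coactivator gene with a TSS in a CpG island, was the 1 gene with a Benzonase and a Cyanase hotspot and no DNase I hotspot there. The 6 genes with none were Arnt2, a paralog of Arnt known mainly from neurons, Aldh3a1, which encodes an aldehyde dehydrogenase, Gsta1, a glutathione transferase gene, Ugt1a2, a glucuronosyltransferase gene, Cyp2s1, a P450 gene, and Serpinb2, which encodes a plasminogen activator inhibitor and had 0 hotspots in its window in any list.

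For comparison, the TSS of all 6 genes for other metabolic receptors (Nr1i2, Nr1i3, Nr1h3, Nr1h4, Ppara and Rxra) and of all 9 other drug-metabolizing P450 genes was inside hotspots of all 3 nucleases. The share of all protein-coding genes was 46.1%. In the receptor windows 14 of 89 regions were DNase I unique (15.7%, 95% Wilson interval 9.61 to 24.7), and in the P450 windows 18 of 66 were (27.3%, 18.0 to 39.0). The interval for the 46 regions of the aryl hydrocarbon receptor genes, 19.1 to 44.8, overlapped both, which does not show that the shares are alike. At Ahr, Arnt, Ahrr and Tiparp together, 39.3% were DNase I unique (23.6 to 57.6). Common regions were 42.9% there (26.5 to 60.9) and 65.2% in the windows of the other receptors (54.8 to 74.3). At the Cyp1a1-Cyp1a2 pair they were 62.5% (38.6 to 81.5), near the 60.6% in the windows of the other P450 genes (48.5 to 71.5). Whether these shares differ was not tested.

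At Cyp1b1 the nearest hotspot outside the limit of 20 kb lay 27536 bp beyond it. At the Cyp1a1-Cyp1a2 window, 1 hotspot of each nuclease crossed each edge, and the nearest hotspots beyond lay 673 to 763 bp outside. At Tiparp, a Cyanase and a DNase I hotspot lay 157 and 152 bp outside the upstream edge, and at Arnt a Benzonase and a Cyanase hotspot lay 326 and 248 bp outside the downstream edge. At Ahr, a DNase I hotspot lay 696 bp outside the upstream edge.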

How the data were processed

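The deposited data are 3 lists, 1 per nuclease, with positions of hotspots and neither tag counts nor densities. The authors had mapped tags to mm9 (Eland or Bowtie), combined the libraries of an enzyme and called hotspots on the sum, with 0% false discovery. Each deposited list is longer than the hotspot count that the paper prints for the same nuclease. The shares over all regions given here are therefore not the paper's own. Per the file headers the calls are input adjusted and not merged, and the DNase I calls come from 2 libraries. The tag density threshold of the methods is not named in the lists. Depth per hotspot is unknown. There were 0 columns of other samples.

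Positions were counted from 1 and set against NCBIM37 (mm9) and the GENCODE annotation, release M1. Hotspots overlapping by at least 1 bp were joined into regions. A TSS counted when at least 1 protein-coding TSS lay inside a hotspot. RefSeq promoter entries matched 6 of the 7 genes, with 5′ ends within 37 bp. CpG islands were maximal-scoring segments (17 for a CpG, -1 for another base) of at least 200 bp with more than 50% GC and an observed to expected CpG ratio above 0.6, and repeats were not masked. Motifs were searched on both strands, with overlaps allowed. Wilson intervals at 95% cover counting error only. The genes and lists were chosen with earlier results of these data known. All 7 genes were named. One gene of the pathway list is not reported here. Pathway genes were named as examples of a role and where a TSS hotspot was lacking in at least 1 list. Hotspots were named where they lay over a TSS of the 7 genes or between Cyp1a1 and Cyp1a2. The other hotspots described, the promoter sequences and the Ahrr sequence were chosen after their values were seen. Merging, islands and motif search were tested on simulated data. Python 3.11.15, numpy 2.4.6, numba 0.67.0 and matplotlib 3.10.9 were used. Alternatives covered window size, joining rule, hotspot width, TSS rule, single genes left out, the central 150 bp for GC, and the motif.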

Additional observations from a re-analysis of the deposited data

How the results depend on the processing

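Of 84 alternatives, 75 left the value within the limits used here (a count near its main value, a share or mean within its interval or SD). The number of hotspots depended on the window, with 13 Benzonase, 15 Cyanase and 26 DNase I hotspots over gene bodies only and 46, 46 and 63 with 50 kb on either side. The share of regions with the xenobiotic response element motif was 43.5% with the core GCGTG and 13.0% in the central 300 bp. The density outside regions, 0.0739 per kb, was also counted among the alternatives. It is the comparison value for the 0.520 per kb inside regions, not another way of processing it. With an overlap of 50% of both hotspots required, the stretch between Cyp1a2 and Cyp1a1 held 5 regions, 3 of them with all 3 nucleases. Leaving out hotspots narrower than the lower width quartile removed the Cyanase hotspot over the Cyp1b1 TSS. No paired analysis was possible because each nuclease has 1 list, called on pooled tags, and no replicate could be left out for the same reason. Without tag numbers, a missing hotspot cannot be told apart from one below the calling threshold.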
